A study of Caenorhabditis elegans with 12 samples.

Results

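Late-stage Caenorhabditis elegans embryos labelled as mutant in H3K9 methyltransferase genes were compared here with embryos labelled as mutant in lin-61. This gene encodes LIN-61, a protein that binds methylated H3K9. The first strain is labelled met-2 set-25 set-32, a triple mutant in 3 SET-domain methyltransferase genes, and the second lin-61, and each had 2 RNA sequencing libraries. Differences are always the triple mutant minus lin-61, so "higher" means higher in the triple mutant. Likewise "rose" and "fell" describe the triple mutant relative to lin-61, whatever the level in the wild type. The genes described have a deposited normalised count of at least 10 in at least 2 of these 4 libraries, which holds for 12667 of the 46904 genes in the table. Of these members, 10367 are protein-coding, 1507 are annotated as ncRNA, 331 as piRNA and 265 as pseudogenes. No difference between the strains was used to choose them, but 169 members pass this minimum through the triple mutant alone and 485 through lin-61 alone. The second-highest of the 4 values was 10.01 for the lowest member and 9.996 for the highest gene left out.

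The study sequenced 12 libraries, 2 from each of 6 genotypes. Beside the pair compared, these were the wild-type strain N2, a double mutant labelled lin-61 hpl-2, an hpl-2 mutant and a strain labelled hpl-2 I158A. Apart from N2, the groups are named by mutated genes only, and the labels give no allele, deletion extent, outcrossing or number of isolates for any strain. Embryos came from worms on 5 plates, so each library pools many animals and all embryonic tissues. In such bulk samples fewer cells of a type and less RNA per cell cannot be told apart.

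Methylation of lysine 9 of histone H3 marks heterochromatin, the compact part of the genome in which repeats and some genes are kept silent. In C. elegans embryos MET-2 places the first methyl groups on this residue, SET-25 adds the last, and SET-32 has been linked to small RNA directed silencing. LIN-61 has malignant brain tumour (MBT) repeats, which bind the methylated residue, and belongs with HPL-2, an HP1 protein, to the synMuv B genes that restrain vulval fates. A mutant of the enzymes and a mutant of a reader therefore stand at different steps of the same mark.

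The triple mutant libraries differ from each other more than any other pair. Replicate 1 held 1708350 reads assigned to genes, replicate 2 held 10243076, and the lin-61 libraries held 2129879 and 2355737. Genes annotated as ncRNA took 12.01% of the reads in triple mutant replicate 1, 2.15% in replicate 2 and 10.5% and 10.3% in lin-61. Mitochondrially encoded genes took 0.0807%, 1.62%, 0.109% and 0.100% in the same order. Replicate 2 was thus the deepest library, the poorest in ncRNA and the richest in mitochondrial RNA of the 4. Across members, Pearson's r between replicates was 0.813 for the triple mutant and 0.973 for lin-61, and 5232 members (41.3%) differed over 2-fold between the triple mutant libraries against 456 (3.60%) in lin-61. Protein-coding members were higher in triple mutant replicate 2 than in replicate 1 by a median of 0.37 on the log2 scale. Members annotated as ncRNA were lower there by a median of 2.28 (log2 -2.28). The triple mutant libraries are therefore given separately for most genes below. The 16 markers of late embryonic muscle, pharynx, gut, neurons, epidermis and cuticle were all detected. Their summed normalised count was 17636 to 29568 in the triple mutant and 25285 to 27455 in lin-61. Most of this sum was the collagen gene sqt-3, with 23592 and 9001 in the triple mutant and 20608 and 18823 in lin-61. The sum therefore says little about the other markers. The labels do not say whether replicates came from separate cultures, so p-values cover only the differences among these libraries, which can be technical.

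Of 12667 members, 123 were higher and 138 were lower in the triple mutant (limma, Benjamini-Hochberg adjusted p under 0.05). Over the 14640 genes tested in the 12-library fit, 0.840% were called higher and 1.004% lower. The higher calls were almost all protein-coding genes (120 of 123), whereas the lower calls were mostly other genes (88 of 138). Of protein-coding members, 120 were higher and 50 lower, and with size factors from protein-coding genes 106 and 71. The median of a higher call's mean normalised count was 352 in the triple mutant, 103.6 in lin-61 and 188 in N2. For the lower calls it was 4.24, 37.9 and 24.3. Of these calls, 9 higher ones passed the minimum through the triple mutant alone and 84 lower ones through lin-61 alone. The triple mutant and lin-61 libraries did not overlap for any of the 261 calls, and the gap between the nearest libraries was over 2-fold for 81 higher and 125 lower calls. These calls were selected by a test on the same libraries, and uncalled genes such as set-32 also did not overlap. The share without overlap among all members was not counted, so the lack of overlap adds nothing to the calls. The authors' deposited table gives 464 members higher and 562 lower at an adjusted p under 0.05 for the same pair, where 2.96% and 3.95% of all genes with an adjusted p were called. All but 1 of the 261 genes (the pseudogene WBGene00005991) are among them with the same sign.

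The number of calls rests on which libraries enter the fit, where all 6 genotypes share 1 estimate of a gene's spread. Leaving out a triple mutant library takes the wide spread of that strain out of the estimate and makes the test looser. Calls kept in such a fit are therefore not independent support. Without triple mutant replicate 2 there were 344 higher and 368 lower calls (2.42% and 2.65% of the genes tested), which included 120 and 130 of the first ones. Without triple mutant replicate 1 there were 2324 and 3534 (16.08% and 25.9%). Without lin-61 replicate 1 there were 1 higher and 8 lower calls, and without lin-61 replicate 2 there were 1 and 9. The genes that passed with each of the 4 libraries left out in turn were 9: F23H12.5, which was higher, and 8 lower genes at the left end of chromosome X.

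**Figure D1:**
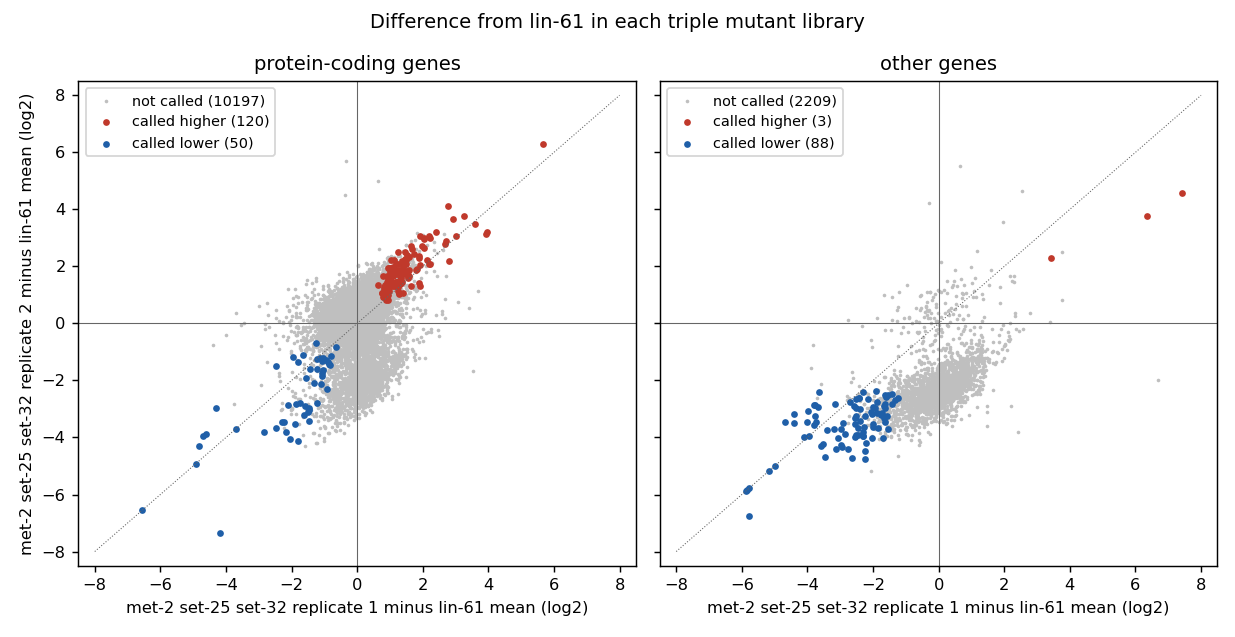
Each point is a member, placed by its log2 difference from the lin-61 mean in triple mutant replicate 1 (x axis) and replicate 2 (y axis), with protein-coding genes on the left and all others on the right. Called genes are coloured (120 higher and 50 lower on the left, 3 and 88 on the right). Most genes on the right lie below 0 on the y axis, while on the x axis they lie on both sides of 0 (ncRNA medians -2.45 and -0.12).

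The mutated genes were read first, since they check the labels. met-2 (WBGene00019883, III 8375300-8380848), which encodes the SETDB1-like methyltransferase, had normalised counts of 44.3 and 77 in the triple mutant and 164 and 185 in lin-61. It was lower in the triple mutant by 1.56 on the log2 scale (log2 -1.56, SE 0.255, limma adjusted p = 0.0188), and the N2 libraries stood at 266 and 267. set-25 (WBGene00012802, III 13283824-13293090) had 159 and 99.7 against 346 and 323, with 417 and 406 in N2. This was a log2 difference of -1.40 (SE 0.225, limma adjusted p = 0.018). Both transcripts were thus reduced but still present in both triple mutant libraries. set-32 (WBGene00008062, I 9519244-9521275) had 6.93 and 2.89 against 14.3 and 18.2, from only 5 and 13 reads in the triple mutant. Its groups did not overlap, but it did not pass the test (limma adjusted p = 0.132).

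lin-61 itself (WBGene00003041, I 7248827-7251282) had normalised counts of 7.15 and 5.45 in the lin-61 libraries and 48.5 and 124 in the triple mutant. N2 had 91.9 and 41.4, and the lin-61 hpl-2 double mutant had 13.6 and 12.4. The lin-61 libraries, whose label names this gene, were the lowest of all 12 for it (log2 difference 3.44, SE 0.489, limma adjusted p = 0.011). A nearby gene went with it. crml-1, the CARMIL actin-regulator gene (I 7152462-7156786, 92040 bases away), had 40.8 and 55.4 in lin-61 and 200 and 391 in the triple mutant. The double mutant had 21 and 39.6. N2 had 182 and 217, and both hpl-2 strains lay between 168 and 211, so crml-1 was low in the strains with a lin-61 mutation. Its log2 difference was 2.53 (SE 0.363, limma adjusted p = 0.011). It was named after its values were seen.

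Other genes that act on H3K9 methylation were examined as a list of readers and demethylases, of which 11 of 12 were members. Apart from lin-61, cec-1 and cec-8 rose and none fell, and the median log2 difference of the list was 0.47 against 0.10 for all protein-coding members (0.32 against -0.05 with size factors from protein-coding genes). cec-1, a chromodomain gene, had 452 and 377 in the triple mutant, 182 and 190 in lin-61 and 332 and 233 in N2 (log2 difference 1.15, SE 0.236, limma adjusted p = 0.0386). cec-8, another chromodomain gene, had 1109 and 1058, 645 and 558, and 1044 and 815 in the same order (0.85, SE 0.175, limma adjusted p = 0.0386). For cec-8 the triple mutant was close to N2 and lin-61 was low, whereas for cec-1 N2 lay between the strains. hpl-2 had 337 and 321 against 234 and 238, which did not pass (limma adjusted p = 0.319). Of the 6 methyltransferase and MET-2 partner genes measured, the mutated genes met-2 and set-25 were lower and the other 4 were not called.

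xnp-1, the C. elegans ATRX gene (a chromatin remodeller), was among the most different protein-coding genes. It had 890 and 1016 in the triple mutant and 120 and 151 in lin-61, a log2 difference of 2.81 (SE 0.448, limma adjusted p = 0.0175). The N2 libraries had 732 and 269, the double mutant had 891 and 401, and the 4 libraries of the hpl-2 and hpl-2 I158A strains had 127 to 184. The triple mutant and lin-61 were far apart, and N2 lay between them with a wide spread of its own. lin-35, the retinoblastoma gene of the synMuv B group, had 403 and 607 against 158.3 and 212, with 414 and 260 in N2 (1.43, SE 0.281, limma adjusted p = 0.0347). Of 20 synMuv B and DREAM genes, lin-61 and lin-35 were called higher and met-2 lower, with a list median of 0.33. lin-61 and met-2 are themselves mutated in 1 of the strains compared, so lin-35 was the only other call.

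**Figure D2:**
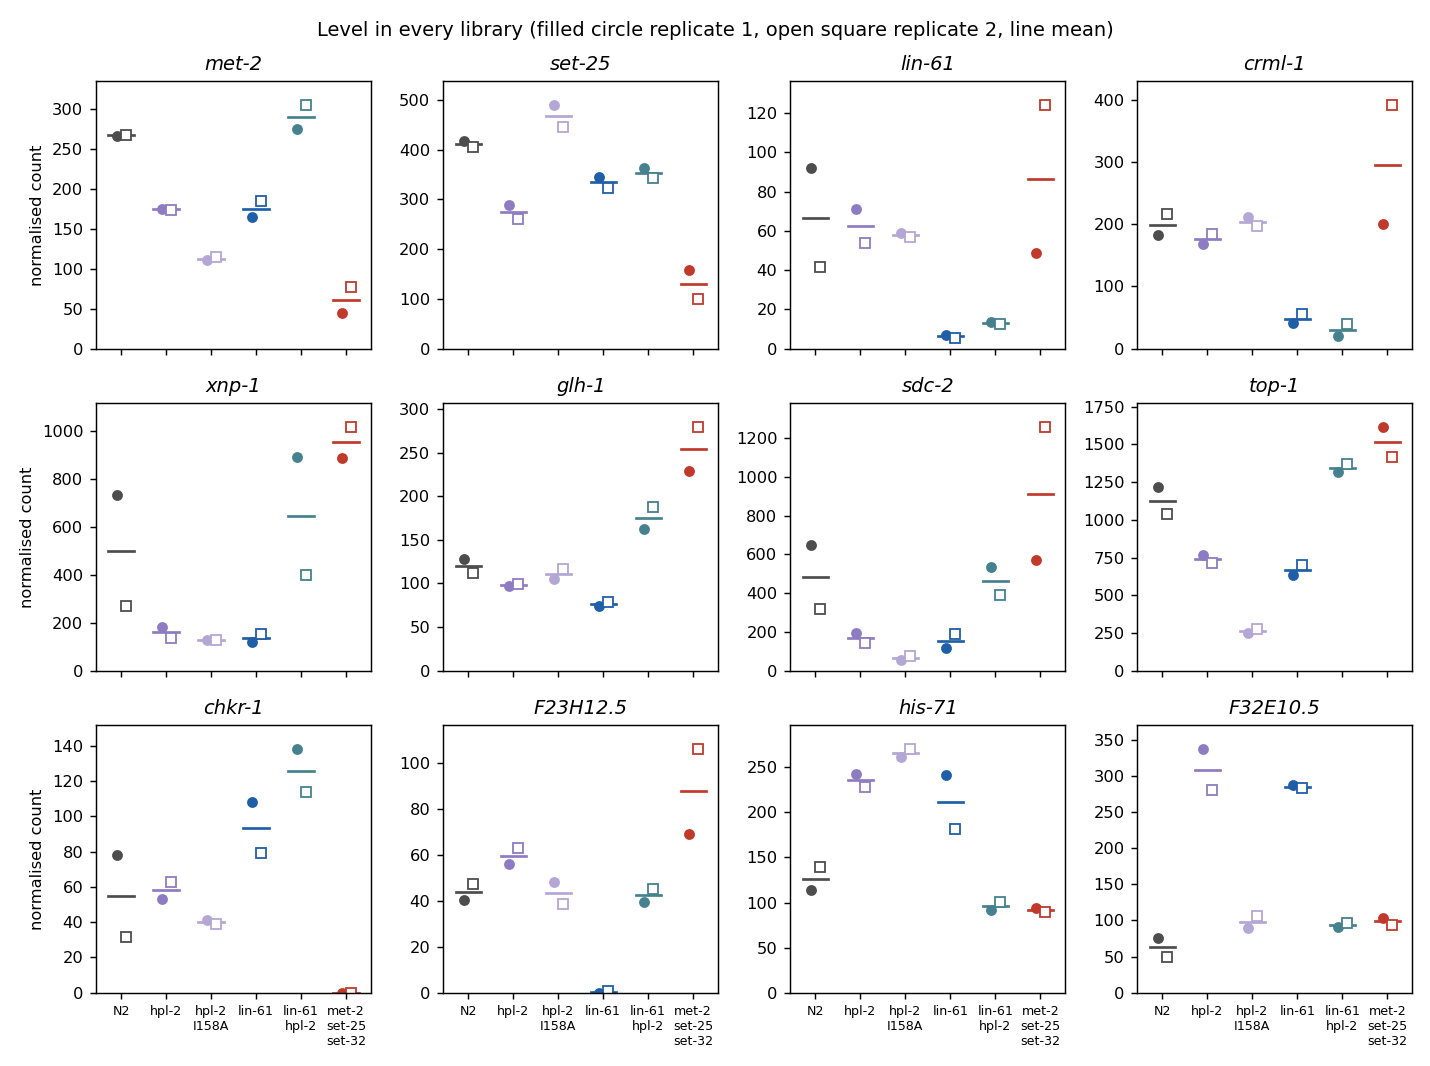
Normalised counts of 12 genes in all 12 libraries, with replicate 1 as a filled circle, replicate 2 as an open square and the mean of 2 as a line (each y axis starts at 0). lin-61 and crml-1 are low in both strains with a lin-61 mutation, chkr-1 is at 0 in both triple mutant libraries and F23H12.5 is at 0 and 0.909 in lin-61.

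Genes of RNA silencing and the germ line gave 7 calls, all higher. From 37 members of the small RNA list, rde-1 (an Argonaute of the RNA interference pathway), dcr-1 (Dicer) and rrf-1 (an RNA-dependent RNA polymerase) rose. rde-1 had 99.8 and 189 against 42.9 and 44.5, with 99.7 and 67 in N2 (log2 difference 1.63, SE 0.351, limma adjusted p = 0.0451). dcr-1 had 406 and 693 against 182 and 214, with 400 and 305 in N2 (1.42, SE 0.28, limma adjusted p = 0.035). For rde-1 and dcr-1 lin-61 lay below N2, and triple mutant replicate 1 was close to the higher N2 library. In each of the 3 genes replicate 2 of the triple mutant was the highest library, and replicate 1 also lay above both lin-61 libraries. In triple mutant replicate 1 alone, rde-1, dcr-1 and rrf-1 lay 1.17, 1.04 and 0.98 above the lin-61 mean on the log2 scale, whereas alg-1, another Argonaute gene, lay below it. The list median was 0.20 in triple mutant replicate 1 and 0.71 in replicate 2, against 0.01 and 0.32 for all protein-coding members.

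Of 20 P granule genes, which encode the RNA-protein granules of germ cells, the Vasa-like helicase genes glh-1 and glh-2 rose and none fell. glh-1 (I 6854478-6857536) had 229 and 279 in the triple mutant, 74.5 and 78.2 in lin-61, and 128 and 112.1 in N2. Its log2 difference of 1.71 (SE 0.215, limma adjusted p = 0.00791) went with values above those of the other 10 libraries, which reached 188 at most. glh-2 had 175 and 209 against 83.7 and 69.1 (1.32, SE 0.261, limma adjusted p = 0.0354). Over the whole list the median was 0.14 (-0.01 with size factors from protein-coding genes), -0.18 in replicate 1 and 0.56 in replicate 2, and without replicate 2 the helicase gene cgh-1 was called lower. Of 28 meiosis genes, syp-4 and syp-1, central parts of the synaptonemal complex, rose. syp-4 had 184 and 195 against 75.6 and 68.2 (1.39, SE 0.271, limma adjusted p = 0.0342), and syp-1 had 208 and 254 against 84.8 and 100 (1.31, SE 0.265, limma adjusted p = 0.0371).

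Markers of oocytes and early embryos were read beside these germline genes. The summed normalised count of rme-2, oma-1, cpg-1 and cpg-2 was 1551 to 2268 in the triple mutant, 1015 to 1103 in lin-61 and 444 to 1225 in N2, with none of the 4 at 0. Most of this sum was cpg-1, with 1039 and 1514 in the triple mutant and 631 and 647 in lin-61, which did not pass the test (limma adjusted p = 0.247), and oma-1 had 94.2 and 177 against 163 and 188. The part of such material in the germline results was not tested. None of 26 oocyte, eggshell and maternal genes was called by limma, edgeR or DESeq2, although 4 had an unadjusted p under 0.05. Without triple mutant replicate 2, the maternal genes mex-5, mex-6 and pos-1 fell and no gene of that list rose. The sperm markers gsp-3, gsp-4 and spe-9 were low in both strains, at 7.34 to 9.70 summed in the triple mutant and 1.02 to 10.9 in lin-61. Other genes of the spermatogenesis list were not low. try-5 had 991 and 188 in the triple mutant and 389 and 418 in lin-61, and fog-1 had 197 and 63 against 155 and 130. Neither was called.

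Among 12 genes of X dosage compensation, sdc-2 and mix-1 rose and none fell. sdc-2, which brings the dosage compensation complex to the X chromosomes of hermaphrodites, had 570 and 1256 in the triple mutant and 116 and 190 in lin-61 (log2 difference 2.50, SE 0.431, limma adjusted p = 0.0239). N2 had 650 and 317 and hpl-2 I158A had 56.8 and 73.4. mix-1, a condensin subunit, had 1005 and 1321 against 515 and 606 (1.04, SE 0.209, limma adjusted p = 0.0356), with 980 and 785 in N2. For both genes lin-61 lay below N2 and the triple mutant at or above it. From 25 DNA damage and apoptosis genes, rad-50, a DNA break repair gene, rose, with 321 and 540 against 55.1 and 82.7 (2.61, SE 0.455, limma adjusted p = 0.0244). Its N2 values of 302 and 111 spanned most of the gap. In triple mutant replicate 1 alone, rad-50 lay 2.23 above the lin-61 mean on the log2 scale, and rnr-2, a ribonucleotide reductase gene, lay below it.

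Histone genes moved in both directions. his-71, which encodes the replacement histone H3.3, had 94.2 and 89.7 in the triple mutant and 241 and 182 in lin-61 (log2 difference -1.18, SE 0.218, limma adjusted p = 0.0313). N2 had 114 and 139 and the double mutant had 91.4 and 101, while the hpl-2 and hpl-2 I158A libraries had 228 to 270. his-67, a histone H4 gene, rose, with 3503 and 3919 against 1767 and 1789 (1.06, SE 0.164, limma adjusted p = 0.0149). Its N2 values of 3257 and 3300 were nearer to the triple mutant than to lin-61. The gene copy at IV 11324056-11324439 with the symbol his-47 had 62.4 and 63.4 against 18.4 and 22.7 (1.58, SE 0.308, limma adjusted p = 0.0342). For this copy N2 stood above the triple mutant, at 93.5 and 75.5. Histone genes are near-identical copies and that symbol belongs to more than 1 identifier, so reads may be split among them and these values are uncertain. Of 53 histone members these 3 were called, and the list median was 0.18. Without triple mutant replicate 2, 6 histone genes were called higher and 2 lower.

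Among abundant genes, top-1 (DNA topoisomerase I) had 1613 and 1418 in the triple mutant, 637 and 701 in lin-61 and 1215 and 1038 in N2. It rose by 1.18 on the log2 scale (SE 0.168, limma adjusted p = 0.011). lam-3, a laminin alpha chain gene of basement membrane, had 1161 and 2314 against 570 and 631 (1.45, SE 0.27, limma adjusted p = 0.0313). gpb-1, the G protein beta subunit gene, fell, with 812 and 521 against 1565 and 1339 (-1.15, SE 0.216, limma adjusted p = 0.0318). rps-26 had 970 and 862 against 1509 and 1546 (-0.74, SE 0.163, limma adjusted p = 0.0495) and was the 1 call among 80 ribosomal protein genes, whose median was -0.02.

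The protein-coding gene with the widest gap in the higher direction was F23H12.5 (V 12358647-12363681). It had 69.3 and 106 normalised counts in the triple mutant, 0 and 0.909 in lin-61 (1 read in all) and 40.5 and 47.5 in N2. The remaining libraries had 38.7 to 62.9, among them the double mutant at 39.5 and 45.3. The lin-61 libraries were therefore the only ones of the 12 with at most 1 read. The pooled ratio was 210-fold (95% counting interval 37.5 to 8314), and the fitted log2 difference was 5.97 (SE 0.402, limma adjusted p = 7.63e-05). The genes fipr-1 and F23H12.16, inside and beside it, had no read in either lin-61 library and 4 to 11 reads in each triple mutant library, and were not called. The collagen gene sqt-3, 4326 bases away, had 20608 and 18823 in lin-61. These 3 neighbours were chosen after their values were seen.

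The next genes by gap in the higher direction were rnh-1.3, C33D9.13, ZC15.3 and mfap-1. mfap-1, a splicing factor gene, had 241 and 255 in the triple mutant and 23.5 and 36.3 in lin-61 (log2 difference 3.04, SE 0.636, limma adjusted p = 0.0407), with 139 and 21.9 in N2. ZC15.3 had 236 and 138 against 18.4 and 10.9, and N2 had only 3.12 and 14.6 (3.58, SE 0.733, limma adjusted p = 0.0381). C33D9.13 had 95.6 and 135 against 11.2 and 7.27, with 56.1 and 18.3 in N2 (3.51, SE 0.545, limma adjusted p = 0.0151). ZC15.3 and rnh-1.3 thus stood above N2 in the triple mutant, while for mfap-1 1 N2 library lay at the lin-61 level. rnh-1.3, named as an RNase H gene, had 67.9 and 63.4 against 6.13 and 3.63, and 10.9 and 3.66 in N2. F10D2.8 had 20.8 and 11.6 against 1.02 and 0, which is 1 read in all for lin-61 and a pooled ratio of 26.7 (95% counting interval 4.63 to 1071). The other genes named by the rule, mlck-1 (a myosin light chain kinase gene), ZK1098.3, F21C10.7 and gldi-11, had log2 differences of 2.73, 3.28, 2.81 and 2.15 with limma adjusted p of 0.0306, 0.011, 0.011 and 0.0342.

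Only 3 genes that are not protein-coding were called higher, and for each of them triple mutant replicate 1 was above replicate 2. T04C12.25, an ncRNA gene lying opposite T04C12.16 over 90.5% of its length, had 1225 and 170 in the triple mutant, 5.11 and 7.27 in lin-61 and 0 to 13.3 in the remaining libraries (log2 difference 6.01, SE 0.854, limma adjusted p = 0.011). The pseudogene WBGene00005991 had 80.4 and 12.46, no read in lin-61 and none in 7 of the other 8 libraries, so it was at least 15.2-fold higher, against a floor of 3 reads over both lin-61 libraries (limma adjusted p = 0.0354). It is the 1 call that the authors' deposited comparison does not share, where its adjusted p was 0.473. WBGene00013826, also a pseudogene, had 80.4 and 35.6 against 9.19 and 4.54 (2.86, SE 0.571, limma adjusted p = 0.0354).

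The lower calls had their densest cluster at the left end of chromosome X. Of 17 members that end before R57.2 at X 297234, 16 were lower and none was higher, and 14 of the 17 pass the minimum through lin-61 alone. They include a run of 14 neighbouring members (X 42632-207723), the only run of 4 or more called neighbours in the genome. All 74 annotated genes of this stretch, with no minimum, together had 43 and 110 reads in the triple mutant and 1092 and 1109 in lin-61. Scaled to 1000000 assigned reads this was 25.2 and 10.7 in the triple mutant, 513 and 471 in lin-61, and 300 to 628 in the other 8 libraries. Both triple mutant libraries were far below the remaining 10. The bounds of this stretch were set after the values were seen.

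Within it, 9 members had no read in either triple mutant library, against 25 to 193 reads over both lin-61 libraries, and no member elsewhere in the genome was without reads in both. chkr-1 (X 182691-191193) had 108 and 79.1 in lin-61, 77.9 and 31.7 in N2 and 0 and 0 in the triple mutant, which is at least 161-fold lower (limma adjusted p = 7.6e-05). T08D2.8 (X 192834-197901) had 25.5 and 33.6 in lin-61 and 0 and 0, at least 51.8-fold lower (limma adjusted p = 0.000414). Y73B3A.11 was at least 20.9-fold lower, and Y73B3A.4 had 2 reads in all against 24.5 and 30.9 normalised counts (pooled ratio 72.7, 95% counting interval 19.2 to 615). The pseudogenes WBGene00008349, at X 261-7587 the first member of the chromosome, and WBGene00022211, and the ncRNA gene Y73B3A.24, showed the same pattern. Y73B3A.1 was less complete, with 273 and 264 in lin-61 against 13.9 and 0.667 (log2 difference -5.76, SE 0.713, limma adjusted p = 0.00786). The last gene of the run, the pseudogene WBGene00022227, had 25.5 and 27.3 against 1.39 and 0.445.

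A few reads remained. Of the 110 and 43 reads of the triple mutant libraries, 86 in replicate 2 and 22 in replicate 1 fell in 3 pseudogenes (WBGene00021342, WBGene00022219 and WBGene00023191). WBGene00021342 was the 1 member of the stretch that was not called, with a limma adjusted p of 0.0551. To the right, R57.2 had 27.7 and 32.5 in the triple mutant and 29.6 and 37.3 in lin-61. Among the next 43 members to the right the median log2 difference was 0.07 (range -1.54 to 1.33). None of them was called by limma or edgeR, DESeq2 called ceh-93 higher and F02G3.2 lower, and 5 had an unadjusted p under 0.05 in limma. The change from near-absent to ordinary levels therefore fell between WBGene00022227 and R57.2. Counts of RNA do not show whether the DNA of the stretch is present in the strain.

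**Figure D3:**
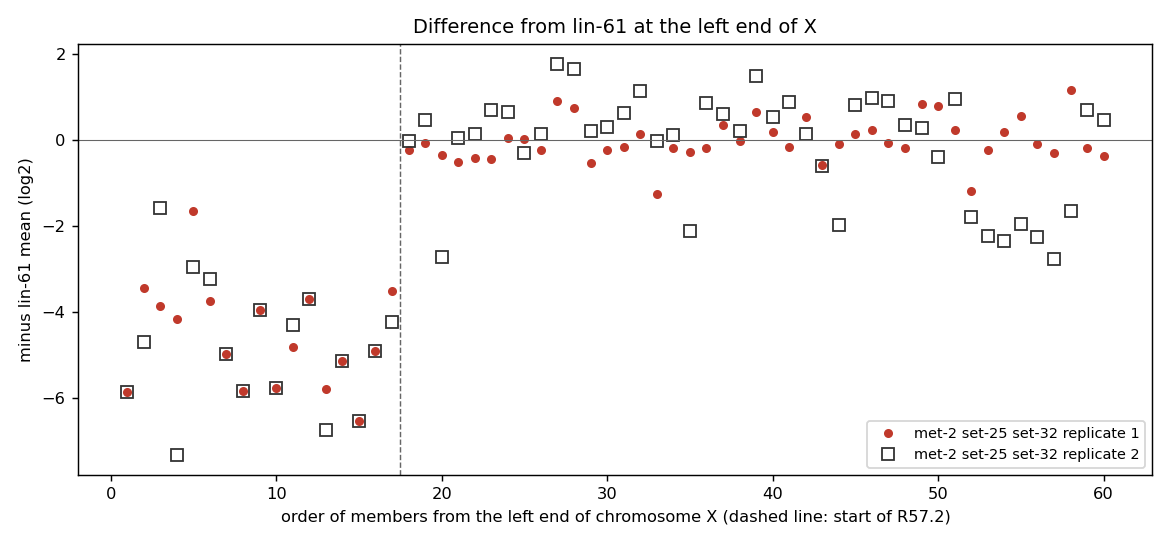
The first 60 members of chromosome X in order from the left end, with the log2 difference from the lin-61 mean in triple mutant replicate 1 (filled circles) and replicate 2 (open squares). The 17 members left of the dashed line are low in both libraries, and 9 of them coincide because neither library has a read.

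Away from the left end of X the lower protein-coding calls with the widest gaps were weakly expressed genes. ttr-6, a transthyretin-related gene, had 23.5 and 26.4 in lin-61 and 0 and 0.667 in the triple mutant (3 reads in all, pooled ratio 43.5, 95% counting interval 14.1 to 218, limma adjusted p = 0.00363). mpz-6, which encodes PDZ domains, had 18.4 and 30 against 0 and 0.667, but both N2 libraries had no read for it either. faah-5, a fatty acid amide hydrolase gene, had 20.4 and 12.7 against 1.39 and 0.222 (limma adjusted p = 0.0206). col-163, a collagen gene, had 28.6 and 20.9 against 4.16 and 1.33, and N2 had 4.67 and 7.31 (log2 difference -2.88, SE 0.515, limma adjusted p = 0.0285). For col-163 and mpz-6 it was lin-61 that stood above N2, whereas for ttr-6 and faah-5 the triple mutant stood below it. Y67D8B.1, T14G12.11 and Y24D9A.7 were the remaining lower genes named by the rule, with log2 differences of -3.63, -3.07 and -3.06.

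Single calls fell in 3 further families: the chemoreceptor gene srh-207 (27.6 and 18.2 in lin-61, 4.16 and 0.667 in the triple mutant), the hedgehog-related gene grl-10 (195 and 183 against 103 and 69.6) and ttr-6. Their families had 45, 45 and 22 members with medians of -0.82, -0.01 and -0.05. For chemoreceptors the 2 triple mutant libraries went opposite ways, with a median of 0.25 in replicate 1 and -2.26 in replicate 2. Collagens (0.47 and -0.59) and neuropeptides (0.30 and -1.32) did the same. Without replicate 2, 3 chemoreceptor genes and 6 neuropeptide genes were called higher and none lower, and srh-207 was not called. The direction of these families thus rests on which triple mutant library is read.

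The other 23 of the 37 lists had no call. They held 654 members, among them the genes of muscle, pharynx, intestine, neurons, cilia, epidermis and cuticle, heat shock, F-box proteins and nuclear hormone receptors. Of these, 94 had an unadjusted p under 0.05 in limma, against 2670 of all 12667 members and 1884 of 10367 protein-coding members. edgeR called 3 (che-3, ceh-86 and bath-19, all higher) and DESeq2 called 16 (8 higher and 8 lower). Over all members edgeR called 150 higher and 159 lower, and DESeq2 320 and 431. As a share of members, none of these list counts was above that of all members. Body wall muscle genes had a median of 0.18 (24 members), intestine genes of 0.26 (18 members) and epidermis and cuticle genes of -0.05 (31 members). Among the most abundant cuticle genes, sqt-3 had 23592 and 9001 in the triple mutant and 20608 and 18823 in lin-61. dpy-17 had 13113 and 7172 against 9418 and 9234. For both genes triple mutant replicate 1 lay above the lin-61 libraries and replicate 2 below them.

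**Figure D4:**
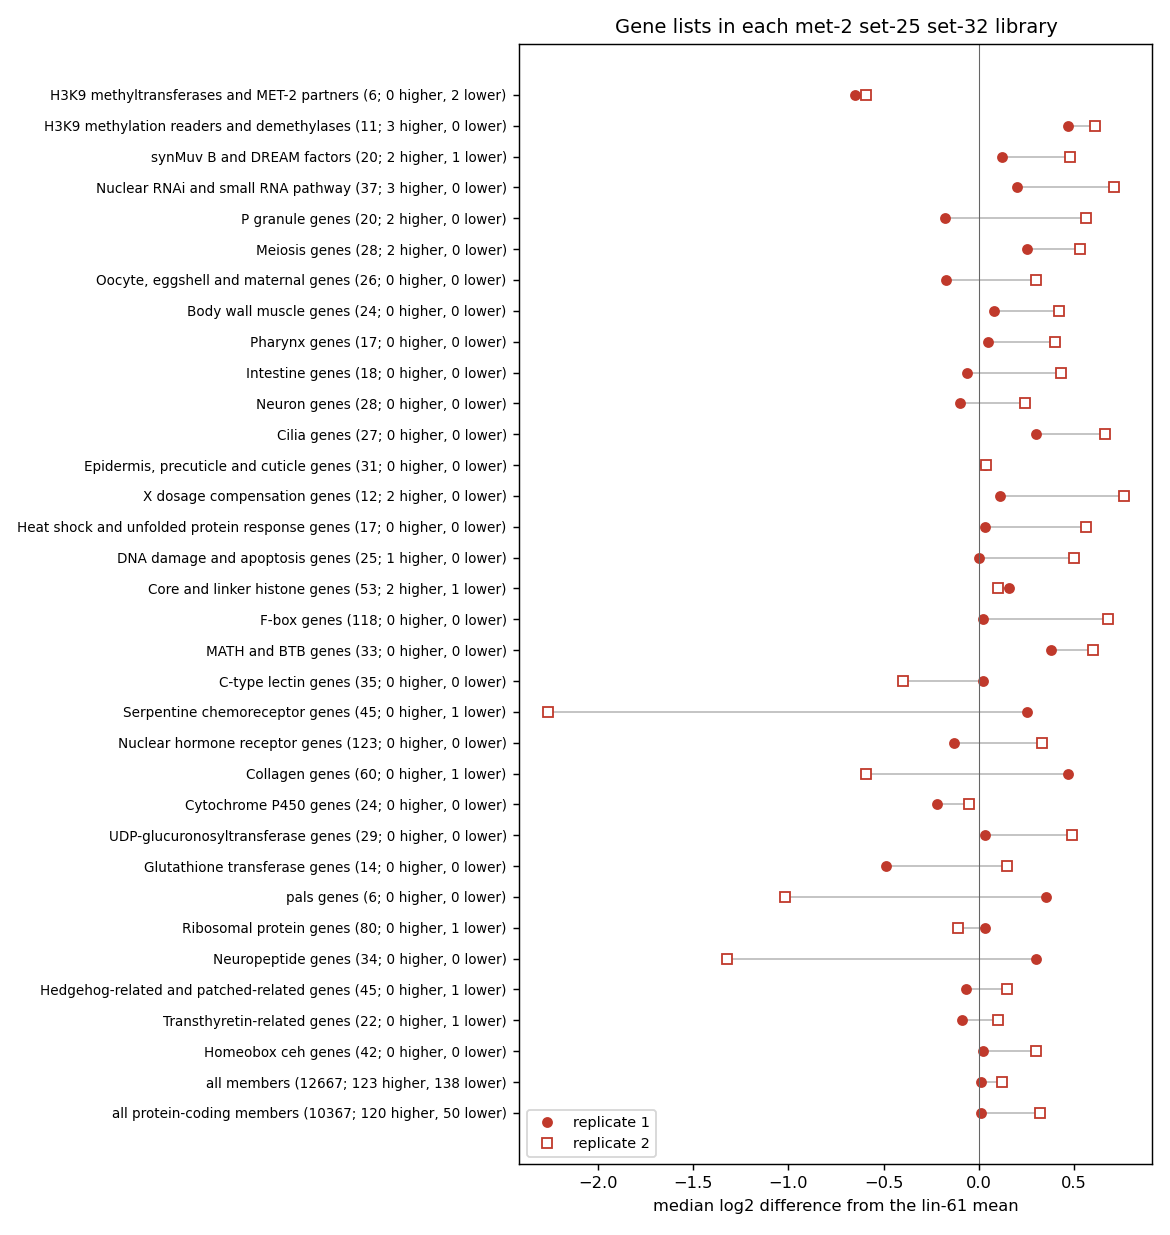
Median log2 difference from the lin-61 mean for each gene list with at least 6 members, in triple mutant replicate 1 (filled circles) and replicate 2 (open squares), with the number of members and of calls after each name. H3K9 methyltransferases, a list that includes the mutated genes, are below 0 in both libraries. Chemoreceptors, collagens, neuropeptides and pals genes are above 0 in replicate 1 and below 0 in replicate 2.

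The 88 lower calls that are not protein-coding comprised 72 ncRNA, 11 pseudogene, 4 piRNA and 1 lincRNA gene. Their median normalised count was 4.16 in triple mutant replicate 1 and 1.56 in replicate 2, and the median of the lin-61 means was 31.2. In N2 the medians were 19.5 and 14.6. They were low in both triple mutant libraries, although replicate 2 is poor in such RNA as a whole: the median log2 difference of all 1507 ncRNA members was -0.12 in replicate 1 and -2.45 in replicate 2. Of the 88, 11 lay at the left end of X and 26 lay over at least 50% of their length opposite exons of another gene. Among all members 4.78% of ncRNA genes were called lower against 0.482% of protein-coding genes. Of all 138 lower calls, 84 passed the minimum through lin-61 alone, the group where they are high. That number was not split by biotype, so the 2 shares may depend on the minimum. Low triple mutant values were also part of how these calls were selected. The part of the ncRNA share of replicate 2 in this contrast was not tested. The libraries keep strand, but whether reads were counted by strand is not given in the sources used here, so reads of genes on opposite strands of 1 place may be mixed.

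Higher protein-coding calls had long transcripts. Their median annotated exon length was 2920 bases, against 1150 for lower calls and 1504 for all protein-coding members. When protein-coding members were split by exon length into 4 groups of equal size, the higher calls numbered 9, 11, 22 and 78 from the shortest to the longest, and the lower calls 18, 15, 10 and 7. The median log2 difference of all protein-coding members went with length in replicate 2 (-0.12, 0.29, 0.38 and 0.54) and hardly in replicate 1 (0.04, 0.02, 0.00 and -0.01). Without replicate 2, the higher calls by length group were 74, 40, 54 and 113, and the lower calls 73, 59, 56 and 72. Whether the length trend of replicate 2 sets which genes were called was not tested.

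**Figure D5:**
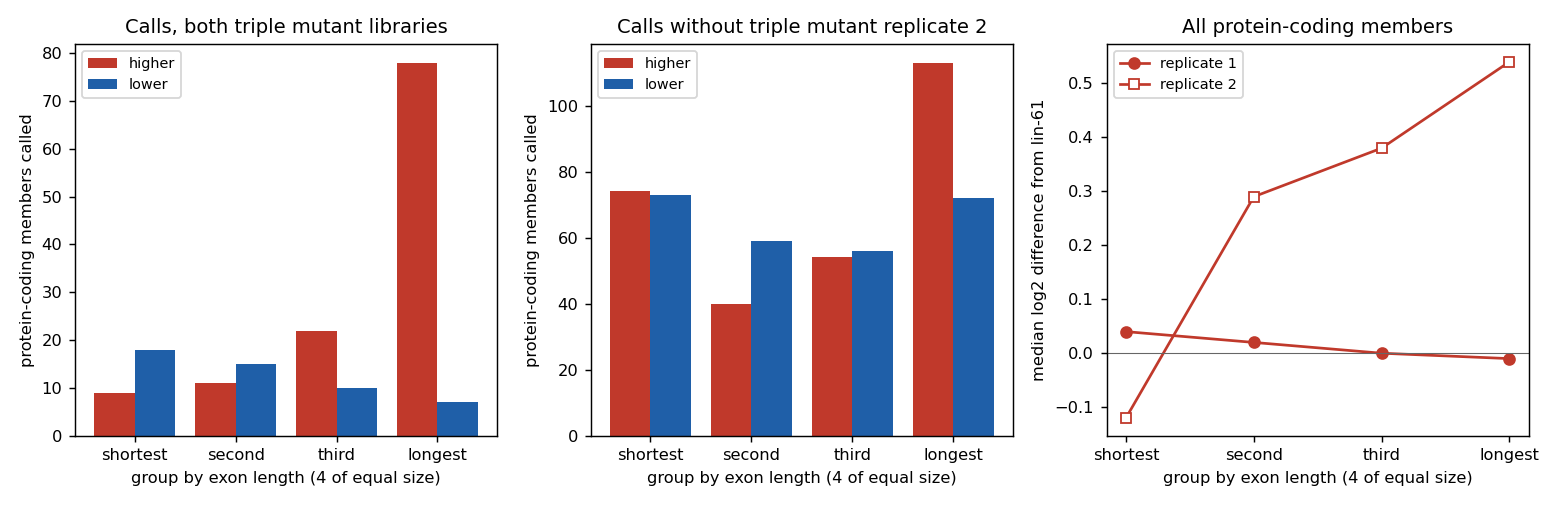
Calls among protein-coding members by group of exon length (4 of equal size) with both triple mutant libraries (left) and without replicate 2 (middle), and the median log2 difference from lin-61 of all protein-coding members in each triple mutant library (right). The longest group holds 78 of 120 higher calls, and the median rises with length in replicate 2 only.

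By chromosome, the share of members called higher was highest on I (1.52%, 34 of 2236) and lowest of the nuclear chromosomes on X (0.474%, 9 of 1898). The share called lower was 1.90% on X (36 genes, 16 of them at its left end) and 0.671% to 1.15% on the autosomes. With each nuclear chromosome cut into 3 parts of equal length, the central parts had 72 higher and 53 lower calls among 5193 members (1.39% and 1.02%). The outer parts, which lie mostly on the chromosome arms where H3K9 methylation is enriched, had 51 and 83 among 7445 (0.685% and 1.11%). Over all members the shares were 0.971% and 1.09%, so lower calls were about as frequent in both parts. The lower calls of the outer parts include the 16 at the left end of X. Runs of 2 neighbouring calls lay on other chromosomes, such as mfap-1 and mog-7 on I (both higher) and Y24D9A.6 and Y24D9A.7 on IV (both lower).

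N2 lay nearer to the triple mutant for 80 of 123 higher calls and nearer to lin-61 for 114 of 138 lower calls, by mean log2 value. These genes were selected for the difference between the 2 strains, and 84 of the lower calls passed the minimum through lin-61 alone. The same count over all members was not made, so these counts do not place N2 relative to the strains as a whole. The median normalised count of the 120 protein-coding higher calls was 287 and 393 in the triple mutant, 214 and 168 in N2, 105 and 110 in lin-61, and 255 and 209 in the double mutant. By these medians of genes selected in the same data, the double mutant was nearer to the triple mutant than to lin-61. Both lin-61 and the double mutant are labelled as lin-61 mutants. hpl-2 I158A was lowest, at 63.6 and 71.8. For protein-coding lower calls outside the left end of X the medians were 40.2 and 23.4 in the triple mutant, 97 and 93.6 in lin-61, 71.7 and 60.9 in N2, and 64.2 and 64.5 in the double mutant. F32E10.5, chosen after its values were seen, is a single gene that departs from N2 in lin-61: it had 288 and 283 in lin-61, 337 and 281 in hpl-2, 103.9 and 93.7 in the triple mutant and 76.3 and 50 in N2 (log2 difference -1.52, SE 0.247, limma adjusted p = 0.0185).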

How the data were processed

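RNA was sequenced from late-stage embryos, after poly(A) selection and with a directional kit, per the labels' protocols. The submitters' processing notes name STAR, featureCounts, DESeq2, WBcel235 and ce11, with no version. In the table the authors deposited, values are a signal: reads per gene divided by a size factor of the library. All values (100%) were whole multiples of the smallest in their column within 1e-06 reads, so reads were recovered for depth and for the count tools. Per the file headers, the authors' other table gives log2 fold changes with a p-value, raw and adjusted, between pairs of genotypes. Its sign was turned to the triple mutant over lin-61.

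From these files, limma 3.58.1 in R 4.3.3 (eBayes with trend) was fitted to log2(normalised count + 1) of all 12 libraries with no term beside genotype. All 6 genotypes share 1 estimate of a gene's spread. The median SD between replicates was 0.59 in the triple mutant and 0.14 in lin-61 on the log2 scale. The SE and adjusted p therefore do not measure the triple mutant's own spread and can be too small. It covered 14640 genes that reach 10 in at least 2 libraries. That log2 scale understates the fold changes of low genes. Genes with a Benjamini-Hochberg adjusted p under 0.05 are called. The plan named edgeR for raw counts. Since the table was normalised, limma was used, and edgeR 4.0.16 and DESeq2 1.42.0 on the recovered reads are alternatives. With 2 libraries against 2, no exact permutation test can reach that threshold. The scripts were checked on simulated counts with known changes.

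Identifiers gave symbols and positions (counted from 1) through the WBcel235 annotation of Ensembl release 115, where 46817 of 46904 matched. Floors are 3 reads over the group, and intervals and floors cover counting error only. In triple mutant replicate 1, 1 read was worth 1.386 normalised counts, and in replicate 2 0.2225.

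The members, the 37 gene lists and the tests were chosen with earlier results of these data known. Genes were named by this rule: the 12 protein-coding and 3 other calls in each direction with the widest gap between the nearest libraries of the groups, the mutated genes and hpl-2, up to 4 called members of each list (the 2 most abundant where none was called), the ends and widest gaps of any run of 4 or more called neighbours, and the 3 abundant calls (mean of at least 1000) in each direction. Other genes are marked as chosen after their values were seen. Not every gene the rule selects is described.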

Additional observations from a re-analysis of the deposited data

How the results depend on the processing

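The direction of all 80 called genes named by the rule or afterwards held in every alternative that gave them a value, 17 in all, and 960 of 1344 such values kept their call. The other 384 lost it. The counts depended on the libraries, and where 1 is left out the lone sample is assumed to vary like the other groups. Without a triple mutant library the spread of that strain leaves the fit, so calls kept there are not independent support. Leaving out 1 of the 4 libraries gave 1 to 2324 higher and 8 to 3534 lower calls, 1 to 2299 and 3 to 1679 of them protein-coding, 0 to 127 calls on the 19 hand-made gene lists (16 as reported) and 8 to 17 at the left end of X. Without triple mutant replicate 1 or 2 all 16 list calls held, and without either lin-61 library none did. A fit of the 4 libraries alone called 0 genes in each direction, 0 on the lists and 0 at the left end of X, with 925 members at an unadjusted p under 0.05. limma with array weights (0.151 for each triple mutant library) called 1 higher and 9 lower genes, 1 and 3 of them protein-coding, 0 on the lists and 8 at the left end of X.

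With no low-value filter 43 higher and 44 lower genes were called, 41 and 13 of them protein-coding and 6 on the lists. DESeq2 called 320 and 431, 310 and 156 of them protein-coding and 29 on the lists, and edgeR 150 and 159. With protein-coding genes and their size factors alone, an alternative chosen after seeing the data, 135 protein-coding genes were higher and 94 lower, and 286 and 278 without triple mutant replicate 2. Applied to all genes, these size factors moved the median of those tested by -0.14 on the log2 scale, called 108 higher and 156 lower members, and turned the median of all protein-coding members to -0.05 and of the P granule list to -0.01.

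Deviations of same-numbered libraries of the 2 genotypes correlated at -0.0223, so no pairing by replicate number was seen between them. A correlation over only 2 genotypes cannot decide whether replicate numbers mark a shared batch, and the other genotypes were not examined. With a replicate block 86 higher and 91 lower genes were called, 84 and 31 of them protein-coding, 10 on the lists and 16 at the left end of X. The cause of these shifts was not tested. Genes below about 10 normalised counts rest on few reads outside triple mutant replicate 2, and a change there was not detectable at this depth.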

Other observations

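Further genes were chosen after their values were seen. Among higher calls, che-10, a rootletin gene of the ciliary base, had normalised counts of 302 and 321 in the triple mutant, 93.9 and 107 in lin-61 and 153 and 173 in N2 (log2 difference 1.62, SE 0.215, limma adjusted p = 0.00951). klp-12, a kinesin gene, had 552 and 664 against 191 and 207 (1.60, SE 0.213, limma adjusted p = 0.0096), and golg-4, a golgin gene, 657 and 812 against 205 and 265 (1.64, SE 0.249, limma adjusted p = 0.0142). In these 3 genes both triple mutant libraries lay above every other library. mtk-1, a MAP kinase kinase kinase gene, had 256 and 431 against 80.7 and 88.1 (1.97, SE 0.283, limma adjusted p = 0.011). cir-1, a corepressor gene, had 394 and 430 against 108 and 99.1 (1.98, SE 0.252, limma adjusted p = 0.00822). R06C1.4 is a short gene (exon length 419 bases) with 342 and 361 against 95 and 97.2 (1.86, SE 0.204, limma adjusted p = 0.00322), and 145 and 189 in N2.

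Among lower calls, polg-1, the mitochondrial DNA polymerase gene, had 236 and 139 in the triple mutant and 666 and 524 in lin-61 (log2 difference -1.70, SE 0.345, limma adjusted p = 0.0372). The mitochondrially encoded genes WBGene00010960 and WBGene00010961 were lower too, with 44.3 and 65.6 against 147 and 138, and 11.1 and 4.23 against 70.5 and 44.5, although all mitochondrial genes together took a larger share of triple mutant replicate 2 than of any other library. nth-1, a base excision repair gene, had 40.2 and 39.6 against 97 and 93.6, and R10E4.1, which lies close by on III, 24.9 and 33.6 against 96 and 81.8. Both were below the 10 other libraries in both triple mutant libraries. sup-9, a potassium channel gene, had 18 and 13.8 against 52.1 and 57.3 (-1.73, SE 0.334, limma adjusted p = 0.0342).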
